A study of Mus musculus with 6 samples.

Results

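Spp1, the gene of osteopontin, was read in the aortas of ApoE(-/-) mice from 1 probe of the array, A_55_P2085142, out of 91188 non-control probes. This was the only probe that the study's list of differentially expressed mRNAs pairs with the symbol, and the list holds probes that differed between the diets on these same arrays. The limits of the list were at least a 2-fold difference and an unadjusted p of at most 0.05. By the methods' t-test on the deposited log2 values, Spp1 stood at a 12.8-fold difference and a p of 0.0479, far inside the first limit and just inside the second. Of the kept probes defined below, 0.588% met both limits in this direction on that table, and 0.557% did on the values normalized here. Spp1 was thus selected on the diet contrast of these arrays, which is given as a description, with no test.

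The 6 arrays each held the aorta of 1 male mouse, homozygous for the loss of apolipoprotein E on a C57BL/6 background. Of these mice, 3 received normal chow for 8 weeks, and 3 received for 8 weeks a diet with 20% fat and 2.5% cholesterol. The loss of ApoE was shared by both groups, and such mice develop atherosclerosis on chow as well, so the normal diet arrays are not a lesion-free baseline. The age of the mice is not given in the sources used here. The scanner output placed normal diet replicates 1 and 3 on slide 1, and normal diet replicate 2 with all 3 high-fat diet arrays on slide 2. Between 62.6% and 64.4% of the probes were detected on the slide 1 arrays and between 72.4% and 76.0% on the slide 2 arrays, and no non-control spot was saturated. The number of arrays limits the precision. The markers of smooth muscle, the main cell type of the aortic wall, could not be checked, because gene symbols were known only for the probes of the study's list, which held 0 of the 7 markers.

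Osteopontin is a secreted, acidic, phosphorylated glycoprotein that cells release into the extracellular matrix. It binds integrins through an arginine-glycine-aspartate motif and binds CD44, and in this way serves cell adhesion and migration. It also binds calcium and restrains the growth of mineral crystals, and its best known sources are bone cells, kidney epithelium and activated macrophages. In diseased arteries it is known from lipid-laden macrophages and from smooth muscle cells that have left the contractile state.

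The mouse gene lies on the plus strand of chromosome 5 (GRCm38.p6, chr5:104435111-104441053), where RefSeq gives it 5 transcripts from 2 start sites. The probe has 60 bases, 45.0% of them G or C, and its sequence is shown because every value of Spp1 rests on it:
A_55_P2085142: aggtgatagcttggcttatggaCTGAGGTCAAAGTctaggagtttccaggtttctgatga
Capitals mark one of the longest runs, 13 bases, that any of the other 91187 probe sequences shares with it on either strand. Runs of this length occurred in 7 other probes, and no longer one occurred. The scanner output gives the probe no genome position, and which of the RefSeq transcripts it reads was not determined here.

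The probe had a single spot per array, in row 862 and column 162. Its mean intensity before background subtraction was 599, 136 and 764 in the mice fed chow (here and below, in the order of replicates 1, 2 and 3). In the mice fed the high-fat diet it was 2387, 21498 and 3387. The median of the local background lay between 20 and 25 on all 6 arrays. The spot was therefore 6.78 times its background on normal diet replicate 2, where it was dimmest, and 1024 times on high-fat diet replicate 2, where it was brightest. On each of the 6 arrays the spot was positive and significant, well above background, unsaturated and free of outlier flags. Its pixels varied by 12.0% to 22.5% of the mean (SD over 43 to 46 pixels). With 1 spot, the technical error of Spp1 within an array could not be measured directly. Probes with 2 spots and signals between 100 and 25000 give the spread within an array, which holds no variation between arrays or mice. The RNA class of these probes was not determined here. Their spots differed by a median of 0.0937 to 0.108 on the log2 scale, and the 95th percentile of that difference was between 0.361 and 0.437, depending on the array.

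**Figure D1:**
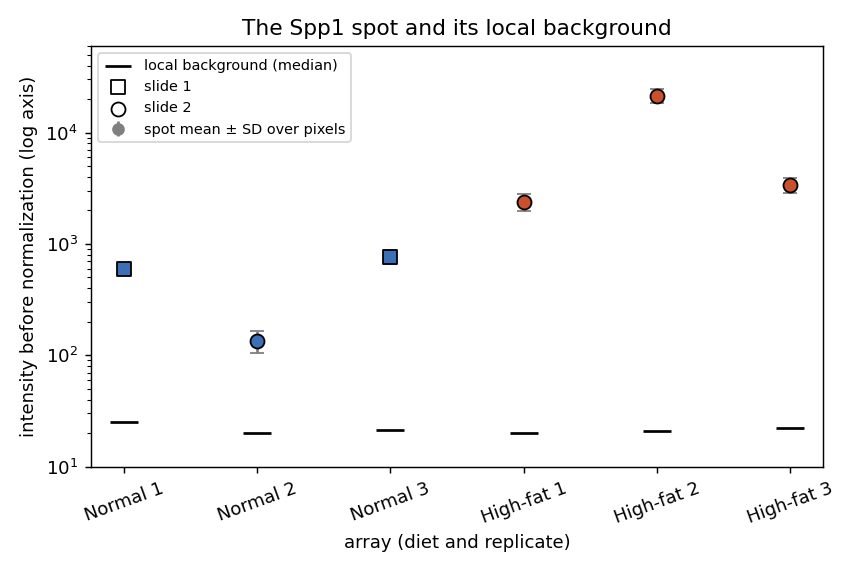
Mean intensity of the Spp1 spot before background subtraction (points, with the SD over pixels) and the median of its local background (dashes) on each array, on a log axis; squares are slide 1, circles slide 2, blue is normal diet and red high-fat diet. The local background stays between 20 and 25 while the spot runs from 136 to 21498.

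After quantile normalization, the log2 signal of Spp1 was 9.29, 6.76 and 9.87 in the mice fed chow. In the mice fed the high-fat diet it was 11.27, 14.09 and 11.56. All 3 high-fat diet arrays lay above all 3 normal diet arrays, as they did for 8.87% of the 64467 probes that were kept because all 3 arrays of at least 1 diet detected them. The gap between the groups, from normal diet replicate 3 to high-fat diet replicate 1, was 1.40 on the log2 scale. In ascending order the arrays were normal diet replicates 2, 1 and 3 and then high-fat diet replicates 1, 3 and 2, and high-fat diet replicates 1 and 3 were 0.29 apart. The mean of the normal diet group was 8.64 ± 1.66 (SD, n = 3), and that of the high-fat diet group 12.31 ± 1.55 (SD, n = 3). The difference of 3.67 on the log2 scale (standard error 0.99 in the limma fit) corresponds to 12.7-fold. Both of the study's criteria were met in that fit, as they were in this direction for 2.13% of the kept probes and in either direction for 2.96%. An adjusted p under 0.05 was reached by 1 probe, 0.00155% of those kept, which was not Spp1. With normal diet replicate 2 left out, 8655 probes reached it, and with any other single array left out 0 did. Without that array each slide held 1 diet only, so slide and diet cannot be told apart among the 8655. Since Spp1 was listed for this contrast, nothing is read from these shares. In whole tissue, more cells that carry the transcript and more transcript per cell cannot be told apart.

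**Figure D2:**
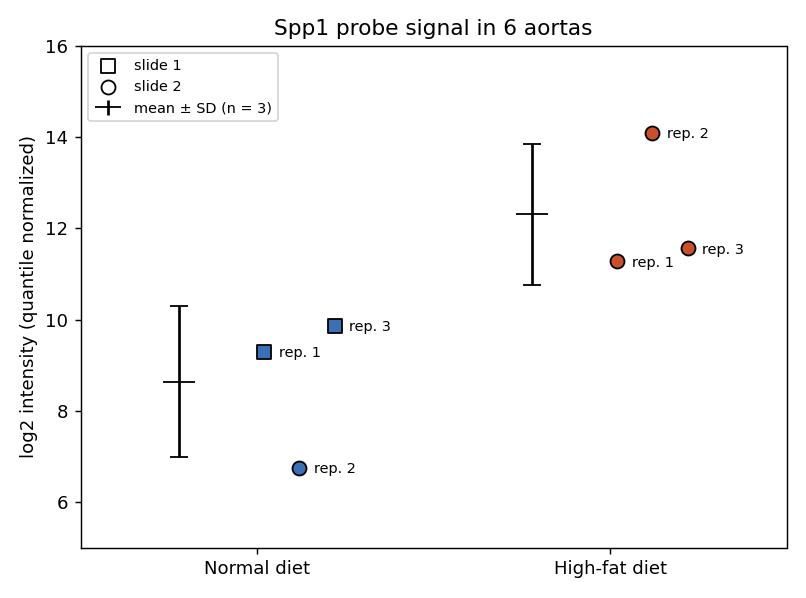
Quantile-normalized log2 intensity of the Spp1 probe on each array by diet, with the mean and SD of each group (n = 3); squares are slide 1 and circles slide 2. The diets do not overlap, with 1.40 between the highest normal diet and the lowest high-fat diet array, and the array of the normal diet that shares the slide of the high-fat diet arrays is the lowest of all.

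The 9 pairs of a high-fat and a normal diet array spread widely around this mean. The smallest difference was 1.40 (2.65-fold), high-fat diet replicate 1 over normal diet replicate 3. The largest was 7.33 (161-fold), high-fat diet replicate 2 over normal diet replicate 2. Against normal diet replicates 1 and 3, high-fat diet replicates 1 and 3 differed by 1.40 to 2.27 on the log2 scale. High-fat diet replicate 2 differed from them by 4.80 and 4.22. These 6 pairs cross the slides.

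The other 3 pairs lie on slide 2. There, high-fat diet replicates 1, 2 and 3 exceeded normal diet replicate 2 by 4.52, 7.33 and 4.81 on the log2 scale, or 22.9-fold, 161-fold and 28.0-fold. The mean of these differences was 5.55, a 46.9-fold difference. Their SD of 1.55 comes from the high-fat diet arrays, since the slide held 1 normal diet array and its spread could not be measured there. Among the kept probes, 0.864% had every high-fat diet array more than 2-fold above normal diet replicate 2. From the highest difference down, Spp1 was in place 7, 3 and 66 of the 64467 kept probes in these 3 pairs. Against the normal diet arrays of slide 1 the high-fat diet mean was 2.73 higher on the log2 scale (6.62-fold). The difference on the shared slide was thus larger than the one across slides, and both had the same sign. With 1 normal diet animal on slide 2, slide and animal cannot be told apart for this gap.

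Spp1 also differed between arrays of the same diet. Normal diet replicate 2, on slide 2, was below the mean of normal diet replicates 1 and 3, on slide 1. This gap, which holds slide as well as mouse, was 2.82 on the log2 scale (7.09-fold). Of the kept probes, 0.490% had a larger difference in either direction, and the median size was 0.40. High-fat diet replicate 2 was 2.67 (6.37-fold) above the mean of high-fat diet replicates 1 and 3, all on 1 slide. A larger difference in either direction was found for 0.110% of the kept probes, with a median size of 0.18. For comparison, the mean difference between the high-fat diet arrays and the normal diet arrays of slide 1 was 2.73, so the gap within the normal diet was slightly larger than it and the gap within the high-fat diet slightly smaller.

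The SD within a diet ranked Spp1 in place 446 of 64467 from the highest on the normal diet and in place 136 on the high-fat diet. The median SDs of the kept probes were 0.31 and 0.19. The normal diet SDs span both slides and so hold slide as well as mouse, while the high-fat diet arrays share 1 slide. Counted down from the largest excess on the high-fat diet, Spp1 was in place 21, and in place 5 to 260 with 1 array left out (place 260 without normal diet replicate 2 and 104 without high-fat diet replicate 2). On all arrays, none of the 20 probes above it had a smaller SD within diets, pooled over both groups. In all, 185 probes had a larger pooled SD than the 1.60 of Spp1.

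**Figure D3:**
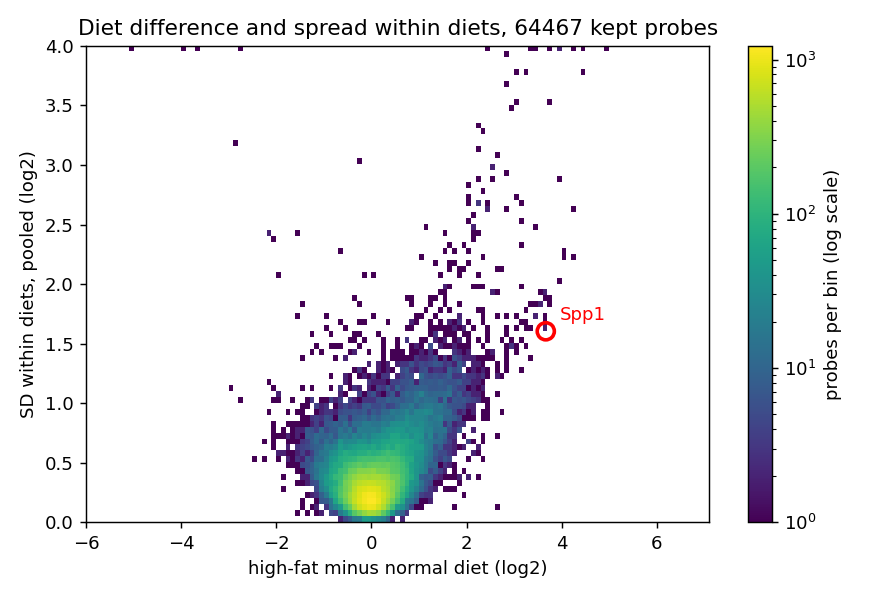
Diet difference (x axis, log2) against the SD within diets, pooled over both groups (y axis, log2), for the 64467 kept probes; colour gives the number of probes per bin on a log scale, and values beyond the axes are drawn at the edge. Spp1 (red circle) lies at a difference of 3.67 and a pooled SD of 1.60, where the median SD of the kept probes is 0.28.

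The Spp1 values depended little on how intensities were corrected and scaled. The diet difference was 3.64 with each array scaled to its 75th percentile, 3.52 after normexp background correction with an offset of 50 and 3.68 in the deposited log2 table. Without any normalization it was 3.85, and 3.61 relative to the median of all kept probes, which moved by 0.23. On the shared slide the corresponding differences from normal diet replicate 2 were 5.53, 4.99, 5.56 and 5.58. The smaller value after normexp came mainly from normal diet replicate 2, the dimmest spot, whose log2 signal was 7.39 in place of 6.76. Under normexp Spp1 was in place 3 of the kept probes, counted from the largest excess on the high-fat diet. The choice of arrays mattered more. Without normal diet replicate 2 the diet difference was 2.73 and each slide then held 1 diet only, while leaving out high-fat diet replicate 2 gave 2.78. Leaving out any other single array gave 4.00 to 4.28.

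**Figure D4:**
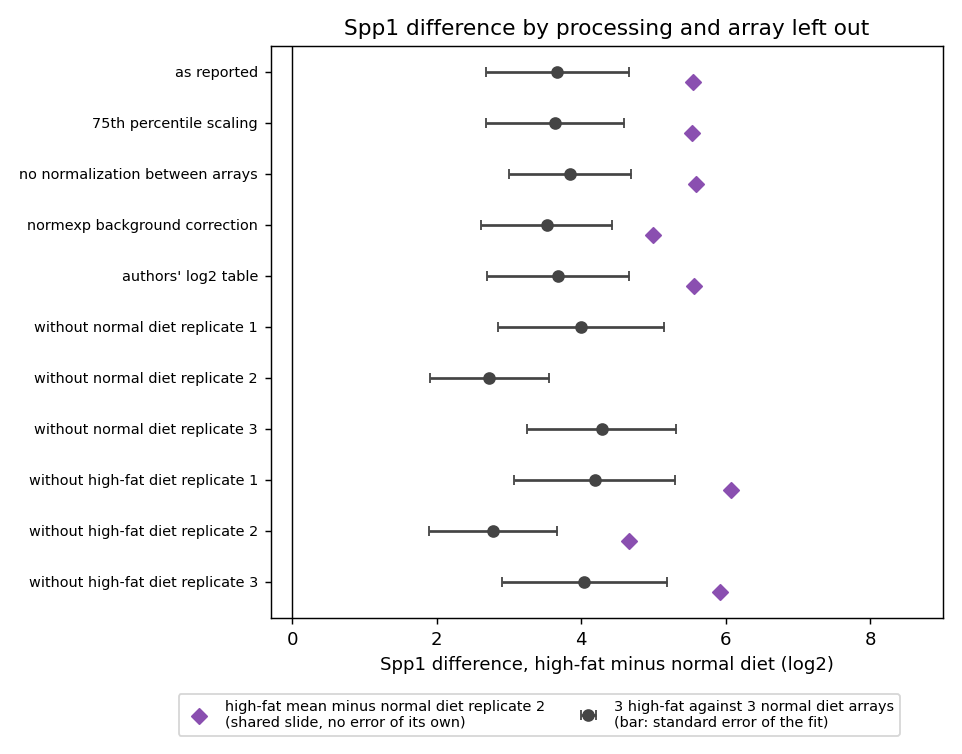
Spp1 difference between the diets on the log2 scale under 5 ways of processing and with each array left out. Black points compare the high-fat with the normal diet arrays, 3 of each unless 1 is left out (bars, standard error of the fit). Purple diamonds compare the high-fat mean with normal diet replicate 2 on the shared slide. The black points lie between 2.73 (without normal diet replicate 2, where each slide holds 1 diet only) and 4.28, and the diamonds between 4.66 and 6.07.

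To place the pattern of Spp1 beside those of other genes, its log2 values over the 6 arrays were correlated with those of the 251 other probes that the same list pairs with a gene symbol known to RefSeq. All of these had been listed for a difference between the diets, and they share the arrays and slides of Spp1, so high correlations come with the choice of probes and are a description only. Their median r with Spp1 was 0.558. Among all 23270 other kept probes whose highest and lowest arrays differed at least 2-fold, the median r was 0.0654. The 8 named probes most like Spp1 had r between 0.969 and 0.997 over the 6 arrays, and 78 of the 23270 probes reached the lower of these values.

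The membership of these 8 depended on the measure of likeness, since 3 of them were also among the closest 8 by Spearman's rho and 2 on the 4 arrays of slide 2. Cd68, a lysosomal glycoprotein of macrophages, had log2 signals of 5.09, 4.38 and 5.94 in chow-fed mice, against 6.87, 7.87 and 6.997 with the high-fat diet (r = 0.975). The order of the arrays was that of Spp1. Clec7a, which encodes the myeloid receptor dectin-1 for fungal glucans, had 5.31, 3.93 and 6.33 and then 7.02, 7.87 and 7.05, again in the order of Spp1 (r = 0.969). For Ncf4, a subunit of the phagocyte NADPH oxidase, r was 0.979. Csf2rb, the shared signalling chain of the GM-CSF receptor, and Slamf7, a surface receptor of immune cells, each had r = 0.974. Vcam1, the adhesion molecule by which activated endothelium holds leukocytes, had r = 0.970 in the closer of its probes and 0.962 in the other. The closer probe also had the array order of Spp1. That order was found in 0.180% of the kept probes and in 9 (5.29%) of 170 other named probes higher on the high-fat diet. Dhx58, a cytoplasmic RNA sensor, had r = 0.969, and Phf11d had r = 0.997.

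Through the choice by r, the 8 have the lowest and the highest array of Spp1, normal diet replicate 2 and high-fat diet replicate 2. All 8 were well above background on all 6 arrays. The range of Spp1 was wider than theirs. From lowest to highest array, Spp1 spanned 7.33 on the log2 scale and the 8 probes spanned 1.88 (Ncf4) to 3.94 (Clec7a). Their mean differences between the diets were 1.00 (Ncf4) to 2.12 (Clec7a), with 2.11 for Cd68 and 1.51 for Vcam1. On the shared slide they were 1.30 to 3.38, with 2.87 for Cd68 and 2.21 for Vcam1. After normexp correction their differences were 0.43 to 1.37, and 4 of the 8 were under 2-fold.

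**Figure D5:**
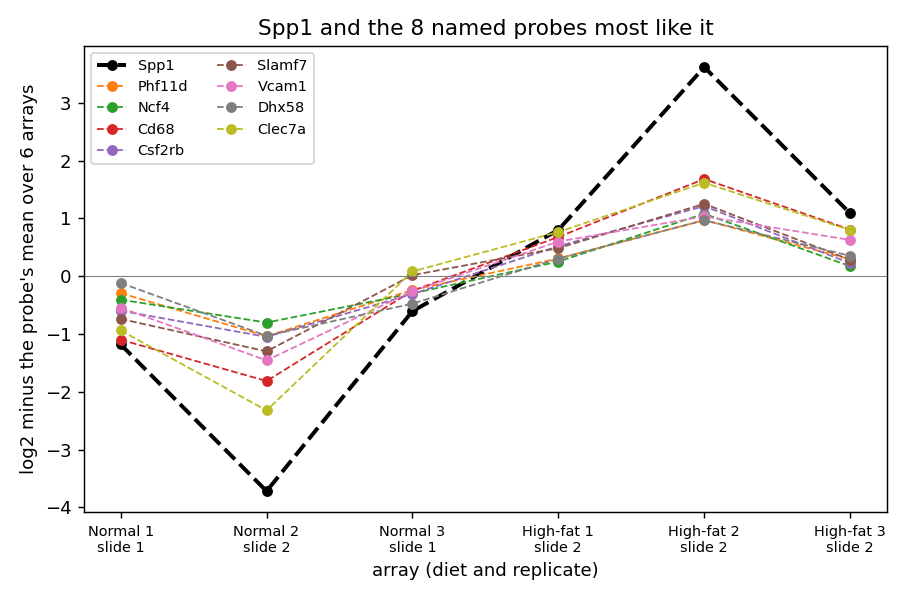
Log2 signal of Spp1 (black) and of the 8 named probes with the highest r with it, each minus its own mean over the 6 arrays; dashed lines only connect points of 1 probe and carry no order of the replicates. All 9 probes are lowest on normal diet replicate 2 and highest on high-fat diet replicate 2, and Spp1 spans 7.33 where the others span 1.88 to 3.94.

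The partners of osteopontin could not be read, because symbols were known only for the listed probes. Among these, none was paired with any of its 10 listed receptor genes (Cd44 and the integrin chains), with the 4 other small integrin-binding glycoproteins of its family, with the 6 proteases known to cleave it or with the 15 genes of mineralization. Of 17 genes of lipid-laden macrophages 1 was on the list, Acp5, the tartrate-resistant acid phosphatase of osteoclasts and macrophages. Its log2 signal was 9.33, 9.15 and 9.83 in chow-fed mice, against 10.51, 10.46 and 10.40 with the high-fat diet. Like Spp1, Acp5 was lowest on normal diet replicate 2, but its 3 high-fat diet arrays were within 0.11 of each other (r = 0.882 with Spp1 over the 6 arrays). It differed by 1.02 between the diets (1.30 on the shared slide), against 3.67 and 5.55 for Spp1.

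Of the 12 macrophage markers only Cd68 was paired with a probe by the list of differing mRNAs, so the macrophage content of the samples could not be summed, and the part of cell number in the Spp1 difference was not tested. Some markers of other cells had higher signals on the high-fat diet as well. Cma1, the mast cell chymase, differed by 1.25 (r = 0.961 with Spp1) and Ly6g, a surface protein of neutrophils, by 1.14 (r = 0.940). After normexp correction these differences were 0.51 and 0.71, both under 2-fold. Each was 1 of 6 markers on its list. Lrp2, 1 of 7 markers of kidney tubule, which is another tissue rich in osteopontin, had log2 signals of 1.07, 4.71 and 1.82 in chow-fed mice, against 5.76, 6.08 and 5.79 with the high-fat diet. Of the chow-fed mice, replicate 2 alone gave a spot well above background, and it alone shared the slide of the high-fat diet arrays. Slide and animal cannot be told apart for this gap. The r of Lrp2 with Spp1 was 0.479. Of the thyroid markers, Tshr was above background on the high-fat diet arrays but on 0 of the 3 from chow-fed mice, so no fold is given. Tg ran the other way, well above background on 3 of 3 arrays from chow-fed mice and on 1 of 3 with the high-fat diet, and no fold is given for it either. All of these genes came from the list of diet differences, and their part in the Spp1 values was not tested.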

How the data were processed

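Total RNA of 6 mouse aortas was hybridised to 1-colour Agilent arrays. The authors deposited, per the file headers, the background-subtracted intensity, raw intensities and flags of each spot from Agilent Feature Extraction (10.7.1.1). They also deposited a table of quantile-normalized log2 values from GeneSpring. That table has equal medians on all arrays (4.98), and its columns followed the log2 intensities with r of 0.9976 to 0.9996 across probes. Groups and replicate numbers were taken from the labels, and the slide from the scanner output.

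Here outlier-flagged and control spots were left out, the spots of a probe were averaged, and log2 intensities were quantile normalized, as in the methods. Detection required the 3 flags positive, significant and well above background in a share of 0.5 or more of a probe's spots, and the filter took probes that every array of either diet, or of both, detected (64467 of 91188). Differences and standard errors came from limma 3.58.1 in R 4.3.3, and other values from Python 3.11.15, numpy 2.4.6 and pandas 2.3.3. The fit was tested on simulated data. Each array comes from 1 mouse.

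Gene names came only from the probe and symbol columns of the study's list of 357 differing mRNA probes. Of these probes, 284 have a symbol, and 252 of those matched RefSeq symbols or synonyms. The rule for named genes took Spp1, the readable genes of 18 fixed lists (7 of 139 genes) and the 8 symbols with the highest r with Spp1 among probes spanning at least 1 on the log2 scale, each symbol by its closest probe. Spp1, the lists and the rule were chosen with earlier results of these data known. Planned tests of the lists were not run, since every readable gene had been listed for the same contrast. Alternatives were other scalings, background correction, spot averaging, filters, the methods' t-test, the deposited table, a replicate or slide block, and each array left out. The qPCR and serum lipids were not analysed here.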

Additional observations from a re-analysis of the deposited data

How the results depend on the processing

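The Spp1 diet difference of 3.67 was positive in 15 of 15 alternatives, a sign that was fixed in advance for many of them. All high-fat diet arrays lay above all normal diet arrays, so leaving out or blocking arrays could not reverse it. With 1 spot per array, the ways of averaging spots reached Spp1 only through the normalization. The difference moved by more than the pooled SD within diets with the slide as a block and with both slide 1 arrays left out. The latter was chosen after seeing the data, and each gave 5.55, which by construction is the shared-slide difference. With 1 array left out it ranged from 2.73 to 4.28, and the shared-slide difference from 4.66 to 6.07. Same-numbered arrays did not deviate together (r of -0.26, -0.20 and -0.03 across probes). The replicate block by construction leaves the Spp1 difference at 3.67, with a standard error of 1.09 in place of 0.99.

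The number of kept probes meeting both criteria, 1909 (1374 higher, 535 lower), was 319 after normexp (203 higher, 116 lower), 986 when detection on all 6 arrays was required and 688 by the methods' t-test (359 higher, 329 lower). That t-test gave 7175 probes at an unadjusted p under 0.05 and 0 after Benjamini-Hochberg adjustment, and limma 8669 and 1. The count was 2163 with the replicate block, 2716 without a filter (1441 higher, 1275 lower), 3521 without normalization (3313 higher, 208 lower), 5877 with normal diet replicate 2 left out and 1137 without replicate 1 of that diet. All 7 readable list genes met both criteria, against 2.96% of the kept probes. Their listing for this contrast on these arrays had largely fixed that count. After normexp 1 of them met both, and 4 did without normal diet replicate 2, where slide and diet coincide. Of the 8 probes most like Spp1, 7 were again among the closest 8 in the deposited table, 3 by Spearman's rho with ties broken by r, 2 on the 4 slide 2 arrays and 5 with each diet mean removed, chosen after seeing the data. Spp1 was well above background on every array, but at its dimmest spot, normal diet replicate 2, the background correction moved the level, and the shared-slide difference was 46.9-fold as reported and 31.7-fold after normexp.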
